A study of Mus musculus with 10 samples.

Results

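The genes described here are 10 that carry the actin cytoskeleton and its main transcriptional switch: the 5 actin isoform genes Actc1, Acta1, Acta2, Actb and Actg1, the serum response factor gene Srf, its cofactor genes Mkl1 and Myocd, and the smooth muscle targets Tagln and Cnn1. They were chosen by name, and all 10 were present among the 14626 genes of the per-library table and among the 12855 genes tested. Hearts came from C57BL/6 mice at 14 days of age, 5 libraries from wild-type (WT) and 5 from Lmna knockout (Lmna KO) mice. Lmna encodes the A-type lamins, filament proteins that line the inner nuclear membrane. Total RNA of heart tissue was sequenced, so both groups hold cardiomyocytes together with fibroblasts, vessel cells and blood cells. The design of the knockout allele is not stated in the sources used here. The study's design text gives 5 mice in each genotype, as many as the libraries of each. The p-values measure the spread between libraries, which are taken here as separate mice.

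Actins polymerise into filaments. Actc1 encodes the cardiac alpha-actin of the sarcomere, Acta1 the skeletal alpha-actin that fetal and stressed hearts also use, Acta2 the smooth muscle alpha-actin that vessels, myofibroblasts and fetal cardiomyocytes use, and Actb and Actg1 the cytoplasmic actins. Serum response factor binds DNA at CArG boxes, and its partner decides which genes respond: the myocardin-related factor encoded by Mkl1 (now Mrtfa) is held in the cytoplasm by actin monomers and released as filaments grow, whereas myocardin, encoded by Myocd, is a nuclear cofactor of cardiac and smooth muscle. Studies of lamin A/C-deficient cells have linked the lamina and its partner emerin to the location of the Mkl1 protein. Transcript levels do not measure that location.

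The CArG boxes are shown first because they are the sites through which serum response factor can act on these genes. RefSeq promoter windows (GRCm38.p6, the assembly also called mm10, from 250 bases before to 50 bases after the annotated start) were available for 7 of the 10 genes, and 4 of them held at least 1 exact CArG box: a CC pair, 6 bases that are each A or T, and a GG pair, a pattern that reads the same on both strands. Over all 32851 promoter windows of the same length 1.63% held a box. The 100 bases just before the start are printed 5′ to 3′ on the gene's strand, all on the minus strand, with the boxes in capitals.
Actc1, chr2:114052876-114052975: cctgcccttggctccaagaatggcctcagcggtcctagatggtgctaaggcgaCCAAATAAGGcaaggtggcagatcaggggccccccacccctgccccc
Acta1, chr8:123894776-123894875: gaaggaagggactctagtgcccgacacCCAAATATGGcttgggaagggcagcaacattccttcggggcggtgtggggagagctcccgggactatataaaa
Actg1, chr11:120348496-120348595: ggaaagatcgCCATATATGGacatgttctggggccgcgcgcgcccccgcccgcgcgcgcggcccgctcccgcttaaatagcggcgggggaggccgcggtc
Srf, chr17:46556163-46556262: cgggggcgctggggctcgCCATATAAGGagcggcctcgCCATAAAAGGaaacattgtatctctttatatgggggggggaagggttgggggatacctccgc
Acta2, chr19:34255374-34255473: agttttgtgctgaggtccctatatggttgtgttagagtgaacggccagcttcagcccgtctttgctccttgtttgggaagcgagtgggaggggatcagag
The box of Actc1 began 47 bases before the start, that of Acta1 73 and that of Actg1 90, while Srf carried a pair of boxes at 82 and 62 bases. The windows of Acta2, Cnn1 and Mkl1 held no exact match, which says only that these letters are not in this window. Near matches were not searched, and the printed bases of Acta2 include ccctatatgg and ccttgtttgg, each 1 base off the exact pattern.

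The coding sequences matter because reads of near-identical genes can be counted for the wrong one. The first 60 coding bases of the 3 muscle actins, from GENCODE transcripts, are printed with the bases that differ from Actc1 in capitals.
Actc1 (chromosome 2): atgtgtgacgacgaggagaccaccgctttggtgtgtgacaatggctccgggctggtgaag
Acta2 (chromosome 19): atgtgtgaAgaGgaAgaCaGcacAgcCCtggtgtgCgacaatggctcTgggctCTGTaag
Acta1 (chromosome 8): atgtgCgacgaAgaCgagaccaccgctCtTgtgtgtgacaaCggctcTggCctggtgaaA
Over 1134 aligned coding bases Actc1 was 82.5% identical to Acta2 and 86.2% to Acta1. The longest run of identical bases in the transcripts of Actc1 and Acta2 was 23, and no stretch of 25 bases was shared. Actb and Actg1 were closer, with 88.7% identity over 1128 bases, a longest run of 62 and 1.6% of the 50-base stretches of Actb also in Actg1. The longest run of all was 77 bases, between Acta1 and Actb. How reads that match several genes were counted is not given in the sources used here, so levels of Acta1, Actb and Actg1 carry that uncertainty, as does that of Acta2, which shared a run of 56 bases with Actg1 and one of 47 with Actb.

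Library totals were 15259545 to 22146030 reads, and values are signal units, that is CPM of the effective library size. Lmna, the targeted gene, was 102.3 to 110.1 in WT and 22.1 to 48.9 in Lmna KO with no overlap (limma adjusted p = 0.00461). The 5th knockout heart stood apart: it correlated on average at 0.905 with WT hearts, and the other 4 knockouts at 0.962 to 0.985. Changes of the members and their ratios are given with and without this heart. Its summed signal of 8 atrial marker genes was 7021, against 48.7 to 94.8 in WT and 140.2 to 270.0 in the other knockouts. Of that sum 6767 was Nppa, which stressed ventricles also express and which is also on the list of cardiac SRF targets used below. The rise was not in Nppa alone: the median log2 difference of the 8 genes from WT was 5.03 in the 5th knockout. It was 0.27 to 1.01 in the other knockouts and -0.031 to 0.090 in WT hearts. Of 10 cardiomyocyte markers (Myh6, Tnnt2, Tnni3 and others) all were detected, with a summed signal of 145168 to 161442 in WT, 82756 in the 2nd knockout, 85279 in the 5th and 124565 to 147019 in the remaining 3. In the 5th these markers went in both directions: Myh6 was 16388 (WT mean 44400) and Tnnt2 8581 (WT mean 4266). The cardiac SRF target Myh7, which is not among the 10, was 64424 in that heart against a WT mean of 55.8. The sum therefore does not measure the cardiomyocyte RNA of the 5th heart.

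Per kilobase of exon, the WT order was Actc1, Actb, Actg1, Acta2, Srf, Acta1, Myocd, Tagln, Mkl1 and Cnn1. Actc1 had a signal per kilobase of 6634 ± 583 (SD, n = 5) and Actb one of 468 ± 29.6. Actg1 and Acta2 followed at 216 ± 16.1 and 186 ± 29.2, and their WT ranges overlapped. Srf (36.5 ± 3.2), Acta1 (28.5 ± 18.2) and Myocd (24.1 ± 1.09) could not all be ordered, since Acta1 overlapped both of its neighbours. Tagln was at 10.2 ± 1.52, Mkl1 at 1.81 ± 0.155 and Cnn1 at 0.330 ± 0.182, with no overlap between neighbours. In the knockouts Actc1 overlapped Actb, and Acta2 overlapped Srf, in both cases through the 5th heart.

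No member passed the test between the genotypes: 0 of 10 had a limma adjusted p under 0.05, where 0.202% of all tested genes did (0.117% higher and 0.0856% lower in Lmna KO). Nor did any pass by edgeR's quasi-likelihood test, which called 0.156% of all genes (0.101% higher, 0.0545% lower), or by DESeq2, which called 6.11% (3.61% higher, 2.5% lower). At an unadjusted p under 0.05 limma gave 0 of 10, edgeR's quasi-likelihood test 0 and DESeq2 1, where these gave 20.8%, 21.2% and 22.5% of all genes. The WT and Lmna KO hearts overlapped for all 10 members, while 10.3% of all tested genes showed no overlap. The median log2 change of the 10 was 0.046, and that of all genes tested -0.0097. Without the 5th knockout heart the count was still 0 of 10 against 4.98% of all genes. Of the 4 actin ratios, described below, that of muscle to cytoplasmic actins differed between the genotypes.

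**Figure D1:**
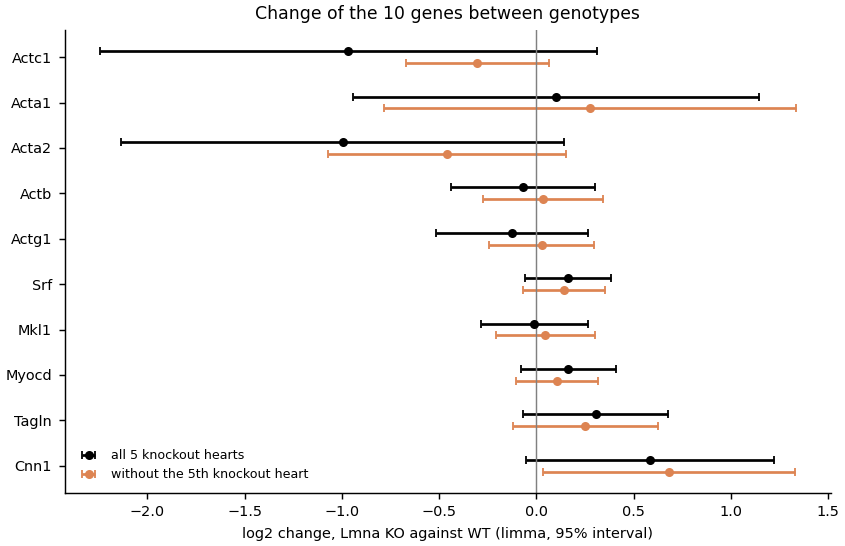
The log2 change of each of the 10 genes (x axis, Lmna KO against WT, limma) is shown with its 95% interval for all 5 knockout hearts in black and without the 5th in orange. All black intervals include 0, those of Actc1 and Acta2 are the widest on the negative side, and leaving out the 5th heart shortens both.

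Actc1, the main actin of the cardiac sarcomere, was 9817, 9206, 10166, 8726 and 10947 in WT hearts 1 to 5 and 9045, 10207, 7151, 5895 and 792 in knockouts 1 to 5. The first and 2nd knockouts lay within the WT range, and the other 3 lay below it. Mean Actc1 signal was 9773 ± 859 for WT against 6618 ± 3658 for Lmna KO (SD, n = 5 each), a log2 change of -0.97 with a 95% interval of -2.25 to 0.31 (limma adjusted p = 0.349). Without the 5th heart the knockout mean was 8075 ± 1923 (SD, n = 4), the log2 change -0.30 and the limma adjusted p 0.318. In the 5th heart Actc1 was at 0.081 of the WT mean, although 15593 reads stood behind the value. Cardiomyocyte markers did not move by the same amount in the same hearts: relative to WT their median log2 difference was -0.95 in the 2nd knockout, where Actc1 differed by 0.067, and -0.74 in the 5th, where Actc1 differed by -3.62. In bulk tissue fewer cardiomyocytes and less RNA per cardiomyocyte cannot be told apart.

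Acta2, the smooth muscle alpha-actin, was lowest in the same 3 knockouts as Actc1. It was 390, 312, 429, 321 and 439 in WT and 465, 374, 208, 152 and 42.0 in Lmna KO. The first knockout lay above every WT heart, the 2nd lay among them, and the 3rd, 4th and 5th lay below all of them. The mean was 378 ± 59.3 in WT and 248 ± 170 in Lmna KO (SD, n = 5 each), a log2 change of -0.995 with a 95% interval of -2.13 to 0.14 (limma adjusted p = 0.288). Without the 5th heart the change was -0.46 (limma adjusted p = 0.359). The SD of log2 Acta2 among knockouts was 1.36, larger than for 99.4% of the 10470 genes whose mean signal reached 5, and for Actc1 it was 1.51, larger than for 99.6%. Without the 5th heart these SDs were 0.74 (larger than for 99.0% of genes) and 0.35 (83.5%). The 12 smooth muscle and pericyte markers, 5 of which are also SRF targets of the list below, went in both directions. Their median log2 difference from WT was between -0.37 and 0.022 in knockouts 1 to 4 and -0.33 in the 5th, where Acta2 differed by -3.14. Smtn, which encodes smoothelin, was 32.5 in the 5th knockout against a WT mean of 116.6 and lay below all WT hearts in 4 of 5 knockouts, while the intermediate filament gene Des was 4108 in the 5th against 1241. Myh11, the smooth muscle myosin, was 36.0 ± 5.55 in WT and 29.2 ± 5.05 in Lmna KO (SD, n = 5 each, limma adjusted p = 0.247).

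Among 12226 tested genes with an official symbol and outside the 10 members, the 5 whose log2 profiles over the 10 libraries lay nearest to that of Acta2 were Ret, Mfap4, Frmd5, Postn and Apln, with root mean square differences of 0.286 to 0.323. The member Actc1 lay at 0.310, between the first and 2nd of these, while Tagln and Cnn1, the other smooth muscle genes here, lay at 1.28 and 1.35. Most of these last 2 distances came from the 5th knockout. There the log2 difference from WT was -3.14 for Acta2, -3.62 for Actc1, 0.51 for Tagln and 0.20 for Cnn1. All 5 nearest genes were at their lowest knockout value in that heart, and distances without it were not computed. Ret encodes a receptor tyrosine kinase, Apln the peptide apelin and Postn the matrix protein periostin of fibroblasts. The 10 fibroblast markers, Postn among them, had a summed signal of 5633 to 6789 in WT. It was 2894 in the 5th knockout and 5164 to 7100 in the other 4, and the median log2 difference from WT in the 5th was -1.61. Within the list the collagen gene Col3a1 (127.0 in the 5th knockout, WT mean 3020) and Postn (46.4, WT mean 366) were low in that heart, while the matrix proteoglycan gene Dcn (1378, WT mean 729) was high. The part of these cells in the Acta2 values was not tested.

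**Figure D2:**
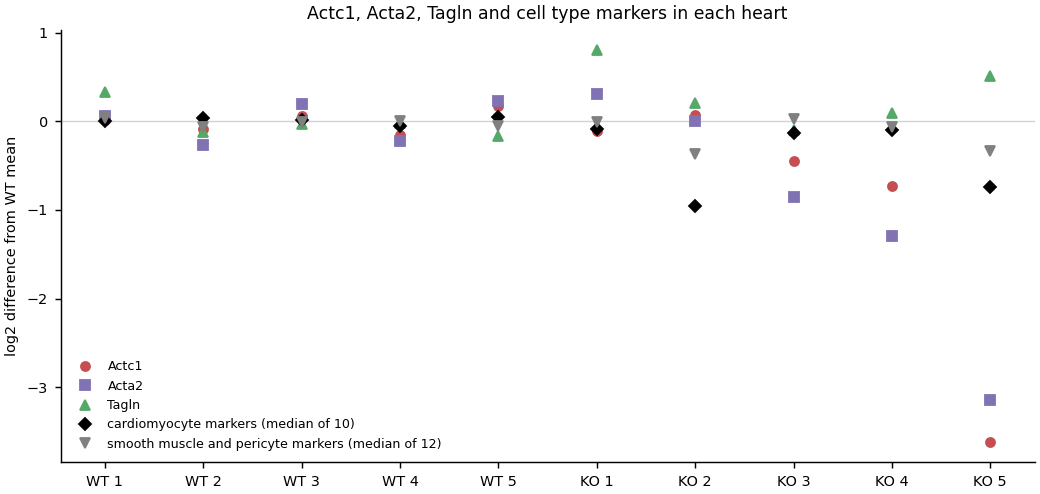
Each point is the log2 difference of a heart (x axis) from the WT mean (y axis) for Actc1, Acta2 and Tagln, with the median over 10 cardiomyocyte markers and over 12 smooth muscle and pericyte markers. Actc1 and Acta2 lie at -3.62 and -3.14 in the 5th knockout, far below both marker medians there, and Tagln lies above 0 in the same heart.

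Acta1, the skeletal alpha-actin, was the most variable of the actins among WT hearts. It was 28.8, 11.2, 33.4, 51.9 and 80.4 in WT and 59.4, 65.6, 26.3, 28.2 and 22.4 in Lmna KO. Every knockout lay inside the WT range, which spanned 7.19-fold. Its WT SD on the log2 scale was 1.05, larger than for 99.8% of the same 10470 genes. The mean was 41.1 ± 26.3 in WT and 40.4 ± 20.4 in Lmna KO (SD, n = 5 each). The log2 change was 0.27 without the 5th knockout. With all hearts it was 0.10, with a 95% interval of -0.94 to 1.14 (limma adjusted p = 0.916), so a change of up to 0.94 log2 units in either direction was not excluded. The direction is not settled, as leaving out the 2nd WT heart gave -0.29 and edgeR's quasi-likelihood test gave -0.017. Of 14 skeletal muscle markers 7 had values, and 5 of these had a mean signal under 1. Their sum was 23.6, 22.2, 23.4, 27.9 and 38.5 in WT hearts 1 to 5, with the lowest value and the 2 highest in the same hearts as for Acta1. In knockouts 1 to 5 it was 32.5, 17.5, 22.6, 31.3 and 31.1. There the order differed: the sum was lowest in the 2nd knockout, where Acta1 was highest among knockouts. Most of that sum was a single gene, Mybpc2, with a mean of 23.7 in WT and 23.3 in Lmna KO. The part of skeletal muscle in the Acta1 values was not tested. The 5 genes with profiles nearest to Acta1 were Nlrp5-ps, Mthfd2, Fam167a, Trim59 and Slc16a3, at root mean square differences of 0.418 to 0.568, wider than those found for Acta2, and all of low signal (WT means of 0.911 to 2.66).

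Actb, a cytoplasmic actin of every cell type, was 902, 803, 926, 907 and 952 in WT and 1038, 1184, 836, 692 and 637 in Lmna KO. The first 2 knockouts lay above all WT hearts and the last 2 below them. The means were 898 ± 56.7 and 877 ± 231 (SD, n = 5 each), a log2 change of -0.071 with a 95% interval of -0.44 to 0.30 (limma adjusted p = 0.828). Actg1, the other cytoplasmic actin, was 454, 384, 446, 394 and 432 in WT and 544, 465, 386, 348 and 252 in Lmna KO. It showed the same split, with knockouts 1 and 2 above and 4 and 5 below all WT hearts. Its means were 422 ± 31.5 and 399 ± 111, a log2 change of -0.13 with a 95% interval of -0.52 to 0.27 (limma adjusted p = 0.699). The changes without the 5th heart were 0.035 for Actb and 0.028 for Actg1.

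**Figure D3:**
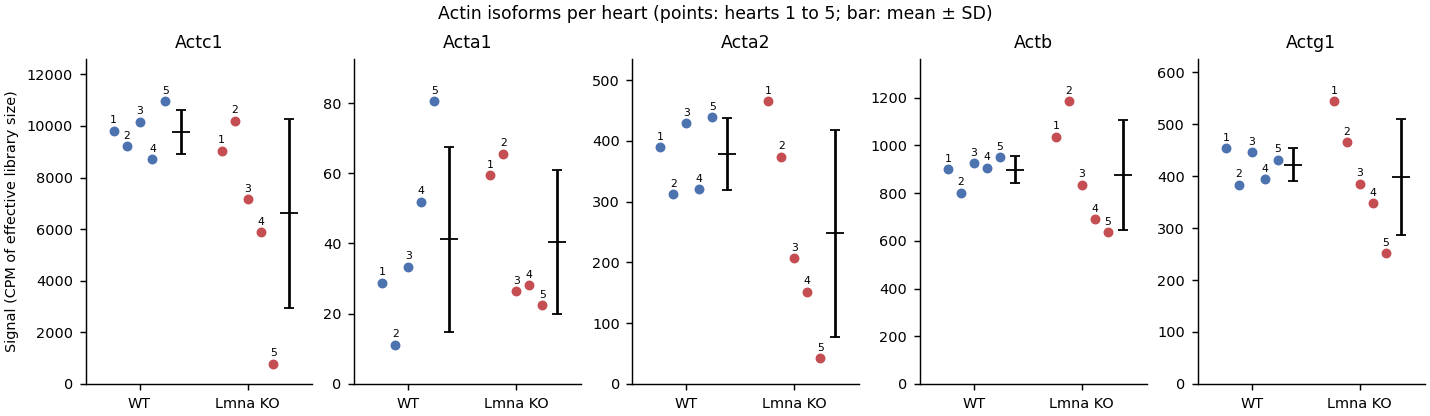
The signal of the 5 actin genes (y axis, CPM of the effective library size, from 0) is plotted for hearts 1 to 5 of each genotype, with the mean and SD as bars. Actc1, Acta2, Actb and Actg1 spread more widely among knockouts than among WT hearts, whereas Acta1 spreads widely in WT.

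Within a library, ratios between isoforms do not depend on scaling, and 4 were compared. The summed signal of the 3 muscle actins over that of the 2 cytoplasmic actins was 7.55, 8.03, 7.74, 6.99 and 8.29 in WT hearts 1 to 5. It was 6.05, 6.46, 6.05, 5.84 and 0.963 in knockouts 1 to 5. All 5 knockouts lay below all 5 WT hearts. The mean ratio fell from 7.72 ± 0.494 to 5.07 ± 2.31 (SD, n = 5 each), a difference of -0.87 on the log2 scale (two-sided exact permutation p = 0.00794, the smallest that 5 against 5 allow, adjusted p = 0.0317 over the 4 ratios). Without the 5th heart the difference was -0.34 and the groups still did not overlap (exact permutation p = 0.00794, adjusted p = 0.0317). Leaving out any of the 5 WT hearts ended the call, with differences of -0.85 to -0.91 and adjusted permutation p-values of 0.143 to 0.222. Each time every knockout still lay below every WT heart that was left, so the loss of the call was not an overlap of the groups. The components of the ratio differed among knockouts: in the first and 2nd, Actc1 was within the WT range and Actb and Actg1 lay above it, while in the 3rd Actc1 lay below the WT range with both cytoplasmic actins inside it. In the 4th and 5th, Actc1 and both cytoplasmic actins lay below it. The median log2 difference of the cardiomyocyte markers, Actc1 not among them, was also below every WT heart in all 5 knockouts (-0.089 to -0.95, against -0.053 to 0.045 in WT), and its part in the ratio was not tested.

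The other 3 ratios did not pass. Acta2 to Actc1 was 0.0397, 0.0339, 0.0422, 0.0368 and 0.0401 in WT and 0.0514, 0.0367, 0.0290, 0.0258 and 0.0530 in Lmna KO. The knockouts lay on both sides of the WT range, with a difference of -0.033 on the log2 scale (exact permutation p = 0.865, adjusted p = 0.865), and of -0.16 without the 5th heart. Across the 10 hearts this ratio spanned 0.0258 to 0.0530 while Actc1 itself went from 792 to 10947. Acta1 to Actc1 was 0.00122 to 0.00735 in WT and 0.00368 to 0.00657 in knockouts 1 to 4, and it was 0.0283 in the 5th, where Actc1 was lowest. Its log2 difference of 1.07 (exact permutation p = 0.167, adjusted p = 0.333) was 0.59 without that heart. Actb to Actg1 was 1.99 to 2.30 in WT and 1.91 to 2.55 in Lmna KO, a log2 difference of 0.055 (exact permutation p = 0.556, adjusted p = 0.741), and of 0.0070 without the 5th heart. Cardiac alpha-actin made up 95.5% to 96.6% of the summed muscle actin signal in WT, 92.5% in the 5th knockout and 94.5% to 97.0% in the other 4.

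**Figure D4:**
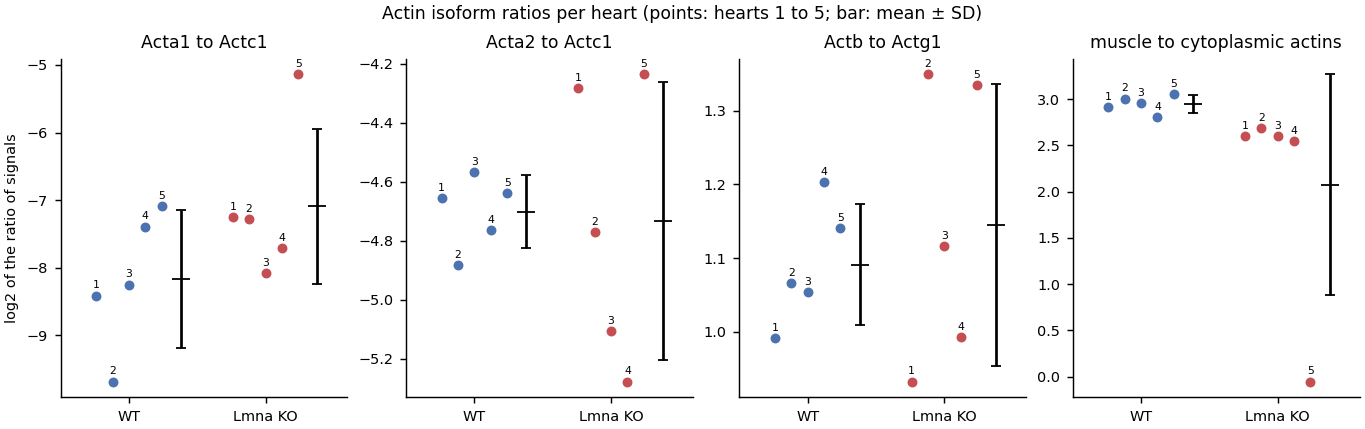
The log2 of each of 4 ratios of signals (y axis) is plotted for hearts 1 to 5 of each genotype, with the mean and SD as bars. For the muscle to cytoplasmic ratio every knockout lies below every WT heart, and the 5th lies far below the other 4. For the other 3 ratios the genotypes overlap.

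Srf, the transcription factor itself, was 90.4, 102.0, 105.7, 85.2 and 94.4 in WT and 121.9, 104.4, 106.3, 90.7 and 111.8 in Lmna KO. In 3 of 5 knockouts it was above all WT hearts and in none below them. The mean went from 95.5 ± 8.37 to 107.0 ± 11.4 (SD, n = 5 each), a log2 change of 0.16 with a 95% interval of -0.060 to 0.38 (limma adjusted p = 0.364). Its SD among knockouts on the log2 scale was 0.155 (percentile 14.2 among genes), and 0.173 without the 5th heart (percentile 40.2). The change was 0.14 without the 5th heart. Mkl1, the actin-sensing cofactor, was 8.87, 7.71, 9.15, 9.23 and 7.84 in WT and 9.66, 7.03, 9.65, 9.27 and 7.16 in Lmna KO. Knockouts lay both above and below the WT range, and the means were 8.56 ± 0.732 and 8.55 ± 1.34 (log2 change -0.010, 95% interval -0.29 to 0.27, limma adjusted p = 0.967), or 0.046 without the 5th heart. Myocd, the cardiac and smooth muscle cofactor, was 122.1, 120.3, 133.4, 121.2 and 120.7 in WT and 151.0, 137.1, 141.1, 106.9 and 162.9 in Lmna KO. In 4 of 5 knockouts it was above all WT hearts, and in the 4th it was below them. Its log2 change was 0.17 with a 95% interval of -0.080 to 0.41 (limma adjusted p = 0.397), and it was 0.11 without the 5th heart.

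Tagln, which encodes the smooth muscle actin-binding protein transgelin, was 20.4, 14.8, 15.8, 16.0 and 14.4 in WT and 28.6, 18.7, 15.0, 17.2 and 23.3 in Lmna KO. The first and 5th knockouts were above all WT hearts and none was below them. The mean was 16.3 ± 2.42 in WT and 20.6 ± 5.39 in Lmna KO (SD, n = 5 each), a log2 change of 0.30 with a 95% interval of -0.066 to 0.68 (limma adjusted p = 0.313), and of 0.25 without the 5th knockout. Cnn1, the smooth muscle calponin, was 1.55, 0.650, 0.668, 0.969 and 0.329 in WT and 1.92, 2.71, 1.09, 0.911 and 0.965 in Lmna KO. Only the first 2 knockouts were above all WT hearts. These values rest on 6 to 23 reads per WT library and 17 to 47 per knockout library. The log2 change on the scale with 0.5 added was 0.59, with a 95% interval of -0.051 to 1.22 (limma adjusted p = 0.267), and the authors' deposited table gives a log2 ratio of 0.875 with an FDR of 0.228. Without the 5th knockout it was 0.68 with a 95% interval of 0.03 to 1.33, at an unadjusted limma p of 0.0412 and an adjusted p of 0.202. Tagln and Acta2, both used as smooth muscle markers, diverged most in the 5th knockout: the ratio of Tagln to Acta2 was 0.0327 to 0.0524 in WT, 0.554 in the 5th knockout and 0.05 to 0.113 in the other 4. That ratio was chosen after its values were seen and was not tested.

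**Figure D5:**
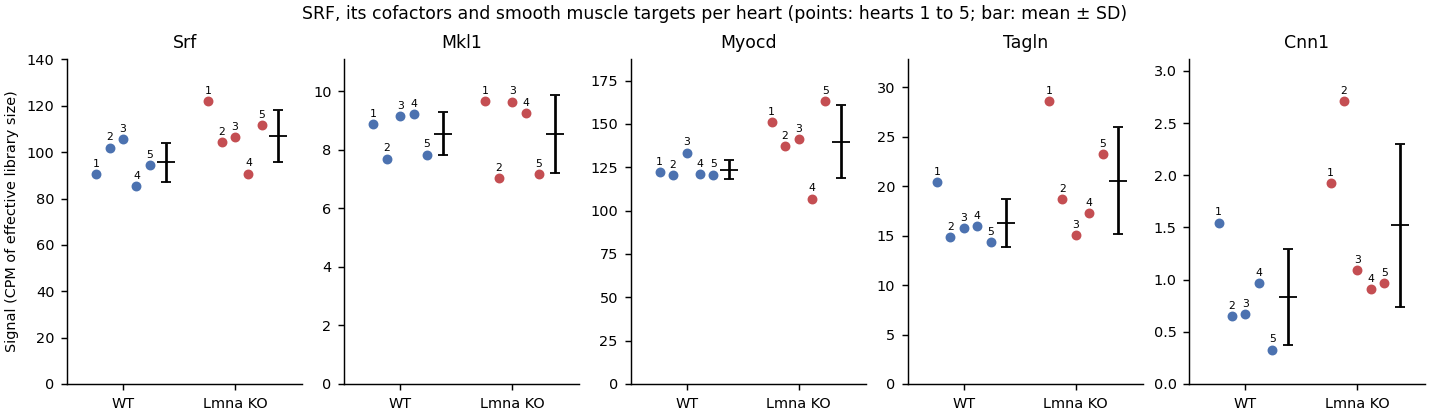
The signal of Srf, Mkl1, Myocd, Tagln and Cnn1 (y axis, CPM of the effective library size, from 0) is plotted for hearts 1 to 5 of each genotype, with the mean and SD as bars. Genotypes overlap in all 5 panels, and Cnn1 stays under 3 signal units in every heart.

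In the authors' deposited table the log2 ratios were -0.56 for Actc1 and -0.61 for Acta2, nearer to 0 than the -0.97 and -0.995 of the means of log2 values, and the FDR was 0.455 and 0.412. Its FDR was at least 0.228 for every member. There the genes lie in mm10 at chromosome 2, 114047289 to 114052811 (Actc1), chromosome 8, 123891758 to 123894775 (Acta1) and chromosome 19, 34240336 to 34255373 (Acta2). Actb lies at chromosome 5, 142903116 to 142906724, Actg1 at chromosome 11, 120345690 to 120348484, and Srf at chromosome 17, 46546839 to 46556162.

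Further genes of the pathway were taken from 6 lists. Of 100 tested, 1 passed with all hearts by limma, where 0.202% of all genes did. Without the 5th knockout 11 passed, 8 higher and 3 lower, where 2.27% of all genes passed as higher and 2.71% as lower. Among immediate-early genes that serum response factor drives with ternary complex factors, 1 of 9 tested rose, where 0.117% of all genes did. This was Nr4a1, an orphan nuclear receptor, from 14.7 to 26.1 in WT to 38.3 to 112.0 in Lmna KO (log2 change 1.85, limma adjusted p = 0.0255). The call was lost on leaving out WT heart 1, 2, 3 or 4 or knockout 2 (adjusted p = 0.060 to 0.101) and held without the other 5 hearts in turn, with a log2 change of 1.77 without the 5th knockout (limma adjusted p = 0.00893) and a range of 1.65 to 2.04. The median log2 change of the 9 was 0.77, against -0.0097 for all genes, and 9 of 9 were above 0, where 6250 of all 12855 genes were. Without the 5th knockout 8 of 9 were above 0, where 6092 of all genes were. Fos and Egr1, the classic early-response factors of the list, were at 6.49 ± 1.5 and 7.17 ± 3.37 in WT and 18.9 ± 11.7 and 17.2 ± 6.95 in Lmna KO (SD, n = 5 each) and did not pass with limma (adjusted p = 0.113 and 0.118). Each was above all WT hearts in 4 of 5 knockouts. DESeq2 called both (adjusted p = 0.0023 and 0.0117), while edgeR's quasi-likelihood test did not. Of the 9 genes DESeq2 called 4, where it called 6.11% of all genes, and edgeR's quasi-likelihood test called 1, where it called 0.156%. At an unadjusted p under 0.05 limma gave 5 of 9, edgeR's quasi-likelihood test 6 and DESeq2 6. These tests gave 20.8%, 21.2% and 22.5% of all genes. Mcl1, the most abundant of the list, was 258 ± 19.3 and 346 ± 143.

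Of 32 other cytoskeletal targets of SRF and MRTF, none passed with all hearts by limma or edgeR's quasi-likelihood test (7 and 6 at an unadjusted p under 0.05, where 20.8% and 21.2% of all genes had one), 3 passed by DESeq2, where 6.11% of all genes did, and the median log2 change was -0.052. Without the 5th knockout 3 rose and 1 fell, where 4.98% of all genes passed. Zyx, the focal adhesion protein zyxin, was 48.8 ± 2.51 in 5 WT hearts and rose to 64.8 ± 8.22 in 4 knockouts (SD, limma adjusted p = 0.0339, log2 change 0.40). Ctgf, a secreted matrix-associated protein, and Ankrd1, a stress-responsive cardiac repeat protein, also rose, and the LIM-domain gene Fhl2 fell. Their means in the 4 knockouts of this fit were 121 ± 38.7, 1105 ± 339 and 1080 ± 190 (SD). WT hearts had 36.2 to 56.2, 321 to 695 and 1646 to 1809. The lowest Ankrd1 value of a knockout, 671, lay within the WT range. The 5th knockout, which is not in this fit, had 4791 for Ctgf, 12131 for Ankrd1 and 467 for Fhl2. Vcl, the actin-anchoring vinculin, was 334 ± 27.9 in WT and 341 ± 23.2 in Lmna KO, and Tpm1, the most abundant of the list, was 7774 ± 742 and 5949 ± 1405 (SD, n = 5 each, limma adjusted p = 0.865 and 0.256). Of 14 cardiac SRF targets none passed with all hearts by limma, edgeR's quasi-likelihood test or DESeq2 (5, 5 and 4 at an unadjusted p under 0.05, where 20.8%, 21.2% and 22.5% of all genes had one). Without the 5th knockout 2 rose and 1 fell by limma, where 4.98% of all genes passed. Myh7 and Nppa rose, and Kcnd2, a potassium channel subunit, fell from 55.3 ± 3.06 to 33.4 ± 6.07 (log2 change -0.73, limma adjusted p = 0.00878). Myh6, the most abundant, was 44400 ± 1868 and 31916 ± 14066 with all hearts (limma adjusted p = 0.336).

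Of 22 cofactors of SRF and regulators of MRTF, none passed with all hearts by limma or edgeR's quasi-likelihood test (5 at an unadjusted p under 0.05 by each, where 20.8% and 21.2% of all genes had one). DESeq2 called 1, where it called 6.11% of all genes, and 2 rose by limma without the 5th knockout, where 2.27% of all genes did. Pfn1, the actin monomer binder profilin, was 113.2 ± 9.30 in 5 WT hearts and rose to 146.4 ± 17.1 in 4 knockouts (SD, limma adjusted p = 0.0446), and the formin gene Diap2, whose product nucleates filaments, rose from 30.3 ± 2.95 to 42.7 ± 7.94 (limma adjusted p = 0.0474). Emd, which encodes emerin, was 18.7 ± 0.936 and 24.5 ± 4.11 with all hearts and was above all WT hearts in 4 of 5 knockouts (SD, n = 5 each, limma adjusted p = 0.136). Mkl2, the second MRTF gene, was 65.0 ± 2.22 and 74.3 ± 7.23, Elk4, a ternary complex factor, 66.6 ± 2.86 and 70.8 ± 8.67, and Rock2, a kinase downstream of RhoA and the most abundant of the list, 412 ± 38.3 and 438 ± 49.7 (limma adjusted p = 0.247, 0.648 and 0.653). Of 16 thin filament length and assembly genes, none passed with all hearts by limma or edgeR's quasi-likelihood test (3 and 2 at an unadjusted p under 0.05, against the same 20.8% and 21.2%), and 2 passed by DESeq2, against 6.11%. Without the 5th knockout 1 of the 16 passed by limma, where 4.98% of all genes did. This was Tmod1, which caps the pointed ends of thin filaments and fell from 421 ± 22.4 to 321 ± 45.0 (log2 change -0.40, limma adjusted p = 0.042). Tmod1 was below all WT hearts in 5 of 5 knockouts, where 10.3% of all tested genes showed no overlap of the genotypes. Actn2, which anchors actin at the Z-disc, was 1710 ± 92.2 and 1712 ± 645 with all hearts (limma adjusted p = 0.865). Of 7 tested actin-related genes none passed by limma or edgeR's quasi-likelihood test with or without the 5th knockout, and 0 had an unadjusted p under 0.05 by either. DESeq2 with all hearts called 0 and gave 1 an unadjusted p under 0.05. With all hearts limma, edgeR's quasi-likelihood test and DESeq2 called 0.202%, 0.156% and 6.11% of all genes. They gave 20.8%, 21.2% and 22.5% of all genes an unadjusted p under 0.05. Actg2, the enteric smooth muscle actin, was under the signal minimum for testing, at 0.329 to 0.672 in WT and 0.254 to 1.27 in Lmna KO.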

How the data were processed

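Total RNA of mouse hearts was sequenced, 5 WT and 5 Lmna KO libraries. The submitters' processing notes name TopHat2, Cufflinks, edgeR and the build mm10, with no versions, roles or settings in the sources used. A signal value per gene and library was deposited by the authors, by its sheet name CPM of the effective library size. The authors' own edgeR comparison, also deposited, holds a log2 ratio, a p-value and an FDR. Of 14647 rows 21 had gene names turned into dates (0.134% to 0.204% of reads) and were left out. Whole reads came back for 100% of values within 0.01 read, which gave the depths and the count-based alternatives. The 12855 genes whose mean signal reached 1 were tested with limma 3.58.1 on log2(signal + 0.5), a design of genotype alone, an intensity trend and two-sided Benjamini-Hochberg adjustment at 0.05. This scale understates the change of low genes. Ratios were tested with two-sided exact permutation tests over 252 regroupings.

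Alternatives were other pseudocounts, filters and scalings, libraries left out, a replicate block, robust moderation, library weights, edgeR 4.0.16 (quasi-likelihood) and DESeq2 1.42.0. The edgeR fit without the 5th knockout library was added after seeing the data. The fit was tested on simulated data, in which both groups had the spread of WT hearts. Most pairs of knockout hearts differed more than any pair of WT hearts. The simulation therefore does not show which changes could be detected here. The 10 members and the gene lists were chosen with earlier results of these data known. Besides the members, genes were named by a rule: called members and the most abundant member of each list, 7 genes fixed by name, and the 5 profiles nearest to Acta1 and Acta2. The marker genes Smtn, Des, Col3a1 and Dcn were named after their values were seen. Exon lengths are merged exons of GENCODE M21 basic transcripts. No 2 libraries of 1 genotype matched within sampling noise (lowest chi-square per degree of freedom 5.08).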

Additional observations from a re-analysis of the deposited data

Results flagged for a closer look

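In 30 groups of 5 hearts (10 members, Lmna and 4 ratios in each genotype), 4 had a heart whose gap to its nearest neighbour exceeded 0.71 of the group's range. Chance flags about 1 in 20 groups. The ratio of Acta1 to Actc1 in the 5th knockout was 0.0283 and that of muscle to cytoplasmic actins 0.963, in the heart whose Actc1 signal was 792. Tagln in the 1st WT heart was 20.4, and Myocd in the 3rd WT heart was 133.4.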

How the results depend on the processing

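The count of members called was 0 under all 23 alternatives, with the smallest adjusted p at 0.0553 (Acta2, library weights) and 0.0594 (Actc1, 2nd and 5th knockouts left out). Acta2, Actc1, Tagln, Srf and Myocd kept their direction in all of them and Lmna its call, and Cnn1 kept its direction in 22, since it was not tested at a mean signal of at least 5. Leaving out 1 library gave a range of -1.32 to -0.46 for Acta2 and -1.22 to -0.30 for Actc1. Acta1 turned negative without the 2nd WT, 1st or 2nd knockout (-0.29, -0.071 and -0.11; range -0.29 to 0.41) and with edgeR and DESeq2 (-0.017 and -0.018). Actb turned positive without the 4th or 5th knockout (0.0047 and 0.035; range -0.19 to 0.035) and Actg1 without the 5th (0.028; range -0.25 to 0.028), as did edgeR without it (0.074 and 0.057). Mkl1, near 0, turned positive in 10: without the 1st, 3rd or 4th WT or the 2nd or 5th knockout (0.0028, 0.013, 0.016, 0.053 and 0.046; range -0.055 to 0.053), without both knockouts (0.15), with library weights (0.14), edgeR (0.0097), DESeq2 (0.011) and edgeR without the 5th knockout (0.070). The cause was not tested.

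The muscle to cytoplasmic ratio kept its direction. Leaving out 1 library gave differences of -1.02 to -0.34, and 1 WT library less ended the call each time, although the groups still did not overlap. Without the 2nd and 5th knockouts it was -0.37 (exact permutation, adjusted p = 0.0714). There the groups did not overlap either, and the unadjusted p was the smallest that so few hearts allow. With the replicate number as a block it was -0.87 (adjusted p = 0.25), where 5 pairs allow no p below 0.0625. The ratio of Acta2 to Actc1 turned positive as a linear ratio (6.4e-04) and without the 3rd WT, 3rd or 4th knockout (8.3e-04, 0.060 and 0.10; range -0.16 to 0.10), and that of Actb to Actg1 was -0.077 without both knockouts. Of the other lists 1 gene (Nr4a1) was called, 0 to 11 with 1 library left out, 17 without both knockouts, 22 with library weights, 10 with DESeq2 and 14 with edgeR without the 5th knockout.

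Same-numbered libraries shared only a number (correlations of -0.13 to 0.18, and 1 of 5 WT libraries was nearest to its own number). The block called 35 genes in place of 26 and no member. All genes called differed in number between tools: 26 by limma, 20 by edgeR and 786 by DESeq2, and 640 by limma without the 5th knockout. Depth was lowest behind Cnn1, with 6 to 47 reads a library.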
